A study of Mus musculus with 8 samples.

Results

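The levels of 10 transcription factor genes of the vessel lining were followed through single nuclei of the adult mouse heart: Erg, Fli1, Sox7, Sox17, Sox18, Prox1, Gata2, Mecom, Lhx6 and Nr2f2. They were taken by symbol from the gene lists of the matrices, where all 10 of the 10 were found among 32285 genes. The series labels its heart libraries by sex and by genotype, either nontransgenic (nTg, wild type) or transgenic (Tg, constitutive expression of CCNA2, the cell-cycle regulator cyclin A2). Strain, exact age, the promoter of the transgene and the number of animals per library are not given in the sources used here. Of the 8 matrices, 5 had as many columns as their own barcode list, and these were used. By label they are 3 of females, 1 of them nTg and 2 of them Tg, and 2 of Tg males. The other 3 held the same values as 3 of these under other labels and were left out. The labels do not say that these libraries came from separate animals, so every p-value below measures the spread between libraries. Values per library are given with the nTg library first, then Tg females 1 and 2, then Tg males 1 and 2.

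Endothelial cells share a core of regulators and add others according to the kind of vessel. Erg and Fli1 are ETS-family factors that maintain endothelial identity, and Sox7, Sox17 and Sox18 are the SoxF factors, which act with Notch signalling in arterial specification and, through Sox18, in lymphatic development. Prox1 is the master regulator of lymphatic identity, Nr2f2 (COUP-TFII) is a nuclear receptor that promotes venous and lymphatic fate, Gata2 is a zinc finger factor of endothelial and blood development, Mecom (Evi1) is a zinc finger factor of stem cells and arterial endothelium, and Lhx6 is a LIM homeobox factor best known from cortical interneurons.

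In the annotation used here (GENCODE vM21, build GRCm38, the build that the submitters' processing notes call mm10) all 10 are protein-coding. The Erg gene (ENSMUSG00000040732) lies at chr16:95359169-95586593 on the minus strand, and Fli1 (ENSMUSG00000016087) at chr9:32422204-32542861, also minus. Sox7 (ENSMUSG00000063060) lies at chr14:63943673-63950732 on the plus strand, Sox17 (ENSMUSG00000025902) at chr1:4490931-4497354 on the minus strand and Sox18 (ENSMUSG00000046470) at chr2:181669836-181671640 on the minus strand. Prox1 (ENSMUSG00000010175) was placed at chr1:190118035-190170714 on the minus strand and Gata2 (ENSMUSG00000015053) at chr6:88193891-88207032 on the plus strand. Mecom (ENSMUSG00000027684), the longest of them, spans 596713 bases at chr3:29951296-30548008, Lhx6 (ENSMUSG00000026890) lies at chr2:36081953-36105408 and Nr2f2 (ENSMUSG00000030551) at chr7:70351944-70366735, all 3 on the minus strand. There were 5 members, Fli1, Sox17, Prox1, Mecom and Nr2f2, that overlap an annotated gene on the opposite strand which is also counted in the matrices. The matrices count these members and their antisense partners as separate genes. The sources do not state whether counting used strand, and any mixing of their reads was not tested.

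Promoter sequence is shown for 4 members that came in pairs in the levels below: Gata2 and Mecom, both higher in arterial-like nuclei, and Lhx6 and Nr2f2, both lower there and both higher in a cluster led by Kirrel3. Each line is the 250 bases before the first listed start, 5′ to 3′ on the gene's strand, from RefSeq on GRCm38.p6, which held entries for 6 of the 10 members (not for Fli1, Sox7, Sox17 and Sox18). Capitals mark the ETS core GGAA on either strand (TTCC on the strand shown), the letters to which Erg and Fli1 bind. The windows are chr6:88193641-88193890 (plus strand, Gata2), chr3:30509760-30510009 (minus, Mecom), chr2:36105409-36105658 (minus, Lhx6) and chr7:70366747-70366996 (minus, Nr2f2). That of Mecom lies within the gene as placed above, so it is not upstream of the gene's annotated 5′ end.
Gata2: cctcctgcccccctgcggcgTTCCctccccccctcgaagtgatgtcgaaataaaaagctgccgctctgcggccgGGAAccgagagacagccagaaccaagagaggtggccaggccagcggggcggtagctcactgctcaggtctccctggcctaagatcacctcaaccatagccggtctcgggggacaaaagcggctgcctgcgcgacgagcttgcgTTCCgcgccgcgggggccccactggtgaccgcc
Mecom: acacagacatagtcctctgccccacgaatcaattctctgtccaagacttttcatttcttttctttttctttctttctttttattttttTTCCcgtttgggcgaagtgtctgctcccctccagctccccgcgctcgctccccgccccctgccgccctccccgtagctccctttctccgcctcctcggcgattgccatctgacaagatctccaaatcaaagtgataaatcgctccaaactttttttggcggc
Lhx6: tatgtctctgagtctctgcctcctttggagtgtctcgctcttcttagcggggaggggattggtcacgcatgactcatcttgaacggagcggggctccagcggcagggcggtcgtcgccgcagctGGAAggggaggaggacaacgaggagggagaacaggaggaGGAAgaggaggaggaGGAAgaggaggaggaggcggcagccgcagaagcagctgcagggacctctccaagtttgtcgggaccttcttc
Nr2f2: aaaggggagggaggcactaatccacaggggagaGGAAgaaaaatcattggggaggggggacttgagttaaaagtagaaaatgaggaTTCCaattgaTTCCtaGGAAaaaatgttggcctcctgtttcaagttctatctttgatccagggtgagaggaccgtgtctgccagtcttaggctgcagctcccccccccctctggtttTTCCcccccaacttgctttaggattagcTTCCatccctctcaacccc
The core occurred 3 times in the Gata2 window, 1 time in that of Mecom, 3 times in that of Lhx6 and 6 times in that of Nr2f2. Of 32851 RefSeq promoter windows of this length 93.4% held it, with a median of 3 matches, so its presence does not separate the members from other genes. AGATAA, a form of the GATA site searched on both strands, occurred 0 times in these 4 windows and in 9.99% of all. Other forms of that site were not searched.

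The 5 libraries held 25045167 to 38593706 UMIs (unique molecular identifiers, 1 per captured transcript molecule). After filters 34224 nuclei remained, 5773 to 8817 per library, with a median of 2079 to 3053 UMIs per nucleus. Pairs of libraries shared 14 to 28 barcodes, at most 0.341% of the smaller library. Ccna2 in cardiomyocytes went against 2 labels, with 447 CPM (UMI counts scaled to a common total per library and class) in the library labelled nTg female 1 and 0.536 CPM in the library labelled Tg female 1, against 145 to 846 CPM in the other 3. Libraries are therefore named by label only. The library labelled Tg female 2 was the shallowest and stood apart in its markers: fibroblast markers summed to 941 CPM in its capillary-like nuclei, against 321 to 390 CPM in the other 4.

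Endothelial nuclei were clustered again with the 10 members, Ccna2 and sex-linked genes left out, so that no member helped to place a nucleus. Genes that overlap members on the other strand were not left out. The 9056 nuclei described fell into 8 clusters. By their markers 2 were called capillary-like (the cluster led by Kit with 3062 nuclei and that led by Btnl9 with 1112) and 2 arterial-like (led by Sema3g, 863 nuclei, and by Gkn3, 430). A further cluster was endocardial-like (965 nuclei) and another lymphatic-like (771). A cluster of 1505 nuclei led by Col13a1 and Kirrel3 and another of 348 led by Lsamp and Hapln1 raised fewer than 3 markers of any vessel list. They stay unnamed and are called Kirrel3-led and Hapln1-led here. No cluster was named venous, although the Gkn3-led cluster raised 3 venous markers beside 6 arterial ones. A further 70 nuclei with pericyte markers were set aside.

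The marker check gave clear names for endocardial-like and lymphatic-like nuclei and a graded picture between capillary and artery. Lymphatic markers summed to 11511 CPM in lymphatic-like nuclei and to 101 to 263 CPM in the other 5 classes, and endocardial markers to 13970 CPM in endocardial-like nuclei. The arterial list reached 3130 CPM in arterial-like and 743 CPM in capillary-like nuclei. The Btnl9-led capillary cluster lay between, with 4 arterial markers raised and 1579 CPM of the arterial list, and the Sema3g-led arterial cluster still held 4111 CPM of the capillary list. The Hapln1-led cluster carried endocardial markers at 4981 CPM with lymphatic markers at 172 CPM. Fibroblast markers summed to 1418 CPM there and to 1359 CPM in endocardial-like nuclei, against 340.0 to 473 CPM in the other 4 classes, and 3 of them were raised in each. Markers of cardiomyocytes summed to between 1393 and 2287 CPM in the 6 classes and to between 42305 and 53449 CPM per library in cardiomyocytes themselves.

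**Figure D1:**
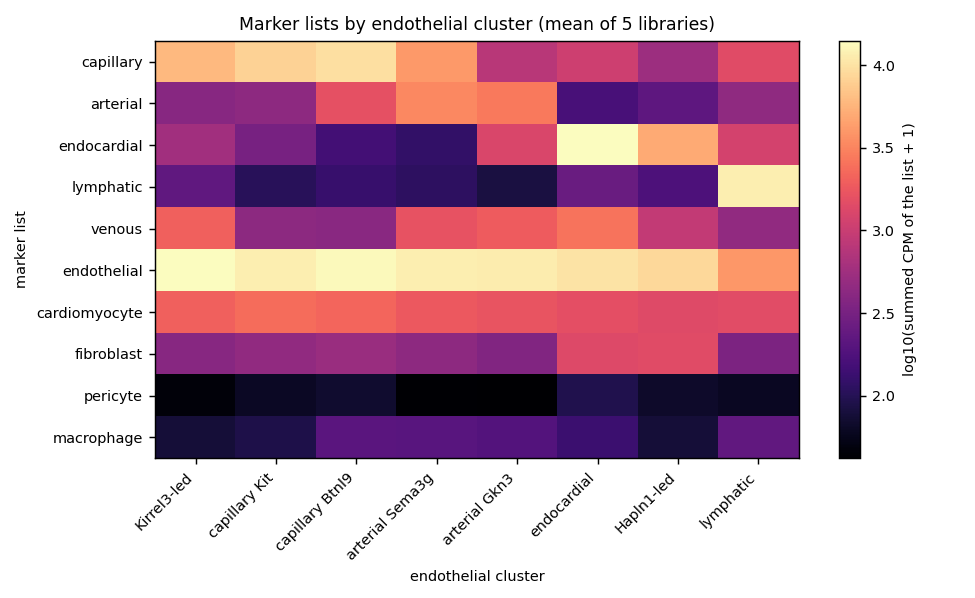
Summed level of 10 marker lists (rows) in the 8 endothelial clusters (columns), as log10 of the mean CPM over 5 libraries plus 1. Each named cluster is brightest on its own list apart from the general endothelial one, except that the Sema3g-led arterial cluster holds 4111 CPM of the capillary list beside 3334 CPM of the arterial list.

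Against capillary-like nuclei, 6 to 8 of the members lay outside the capillary range in the named classes. A member counts here as higher or lower when its CPM in all 5 libraries of a class lay above or below its CPM in all 5 libraries of capillary-like nuclei, and members under 10 CPM in both classes were not counted (Prox1 in arterial-like and Kirrel3-led nuclei). These are descriptions without a test, since clusters come from the same nuclei. In arterial-like nuclei 3 of 9 members were higher (Sox17, Gata2 and Mecom) and 4 lower (Erg, Fli1, Lhx6 and Nr2f2), where 8.03% and 10.6% of all 10261 genes counted the same way were higher and lower, 18.6% together. In endocardial-like nuclei 3 of 10 were higher (Prox1, Gata2 and Nr2f2) and 3 lower (Fli1, Sox17 and Lhx6), beside 12.4% and 14.6% of all genes, 27.0% together. In lymphatic-like nuclei 2 of 10 were higher (Prox1 and Nr2f2) and 6 lower (Erg, Fli1, Sox7, Sox17, Mecom and Lhx6), beside 14.1% and 12.8% of all genes, 26.8% together. The Kirrel3-led nuclei differed least, with 2 of 9 higher (Lhx6 and Nr2f2) and Sox17 lower, beside 5.29% and 4.81% of all genes, 10.1% together. In the Hapln1-led nuclei Prox1 was higher and 5 of 10 were lower (Fli1, Sox17, Sox18, Mecom and Lhx6), beside 11.4% and 12% of all genes, 23.3% together. Over the 5 classes this came to 30 of 48 member and class pairs, and to 33 without the library labelled Tg female 2, where ranges over fewer libraries separate more easily.

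**Figure D2:**
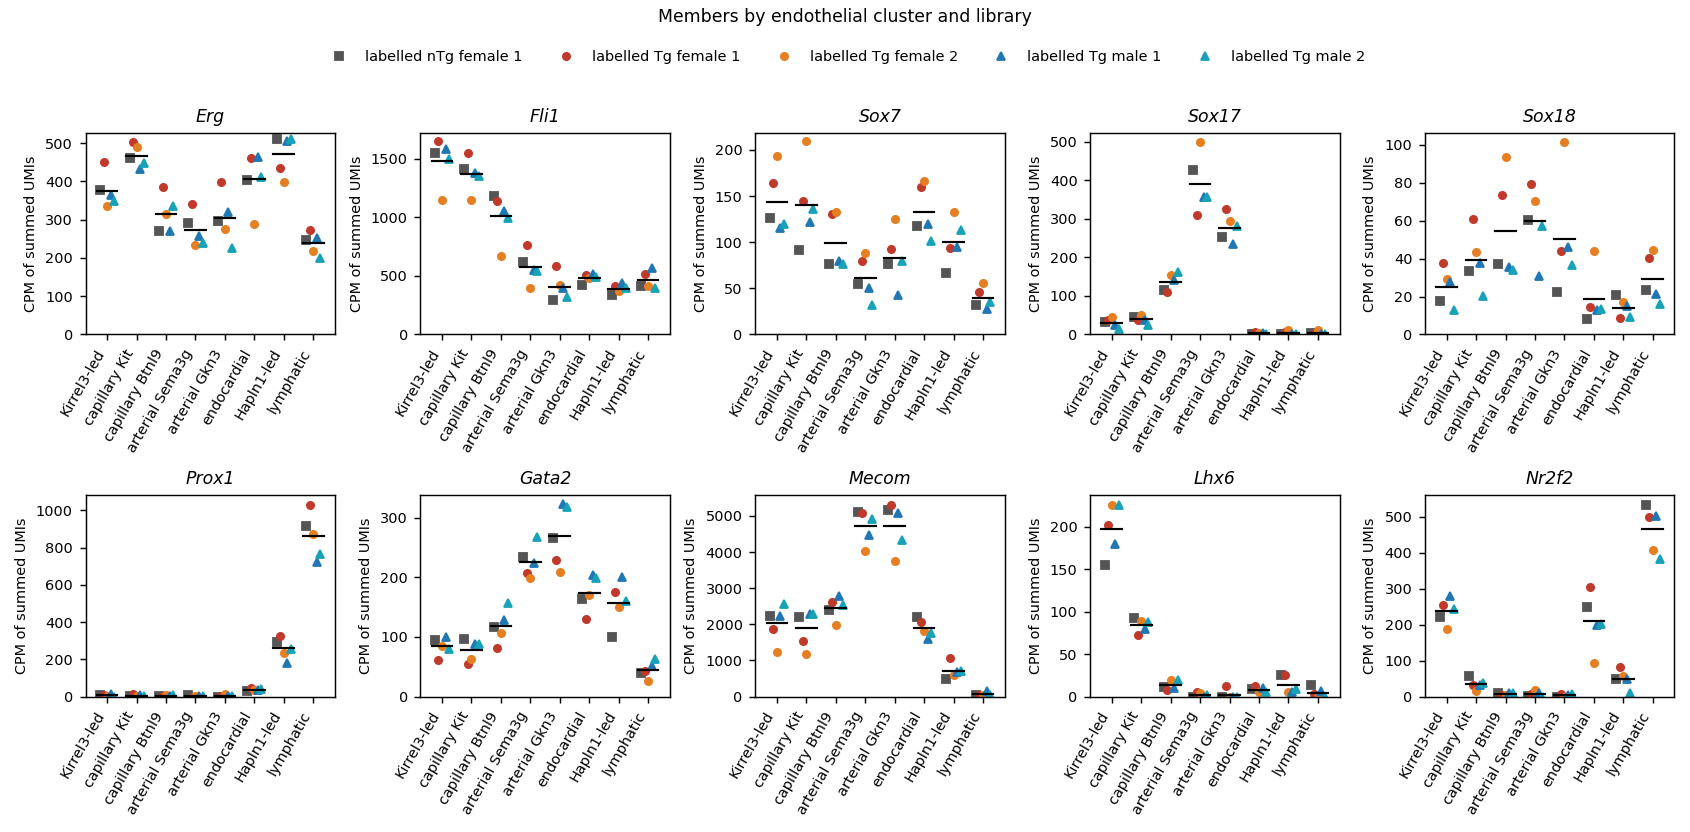
CPM of summed UMIs (vertical axis, linear from 0, a separate scale for each gene) of the 10 members in the 8 endothelial clusters; 1 point per library and a bar at the mean of 5 libraries. Sox17, Gata2 and Mecom reach their highest means in the arterial clusters, Prox1 and Nr2f2 in the lymphatic cluster and Lhx6 in the Kirrel3-led cluster, while the cluster means of Erg lie between 238 and 473 CPM.

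The ETS factors were present in every endothelial class. Erg had a narrow range of levels, and Fli1 was higher in capillary-like and Kirrel3-led nuclei than in the other classes. Erg measured 407, 468, 444, 395 and 417 CPM in capillary-like nuclei and 404, 461, 288, 463 and 412 CPM in endocardial-like nuclei, and these ranges overlapped. Its lowest class was lymphatic-like, at 247, 272, 219, 253 and 199 CPM, all below the capillary values, a mean 1.79-fold lower. In the order of the 8 clusters, from Hapln1-led (473 ± 52.3 CPM, SD, n = 5) down to lymphatic-like (238 ± 29.2 CPM), each cluster overlapped the next.

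Fli1 had its highest means in the Kirrel3-led and capillary-like nuclei. It measured 1545, 1654, 1148, 1580.1 and 1497 CPM in Kirrel3-led nuclei and 1347, 1426, 1026, 1304 and 1257 CPM in capillary-like nuclei, with overlapping ranges. Every library was lower in arterial-like nuclei, at 496, 695, 409, 482 and 484 CPM, a mean 2.48-fold lower than in capillary-like nuclei. Endocardial-like, lymphatic-like and Hapln1-led nuclei were at a like level, with means of 485, 462 and 391 CPM, and each lay below the capillary range. By cluster Fli1 was graded, and each cluster overlapped the next in the order of means. The Btnl9-led capillary cluster (1009 ± 202 CPM, range 673 to 1183) overlapped the Sema3g-led arterial one (575 ± 134 CPM, range 397 to 764).

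Of the SoxF factors, Sox17 followed the artery, whereas Sox7 and Sox18 were spread more evenly. Sox17 measured 359, 316, 411, 305 and 337 CPM in arterial-like nuclei and 64.8, 59.9, 77.1, 61.6 and 60.6 CPM in capillary-like nuclei. All arterial values lay above all capillary values, and the means differed 5.33-fold. Nuclei with at least 1000 UMIs were thinned to 1000 UMIs, and shallower ones were left out of thinned shares here and below. After thinning, 28.8% of arterial-like and 6.11% of capillary-like nuclei held a Sox17 UMI (47.0% and 10.6% of all such nuclei before thinning, at median depths of 2006 and 1882 UMIs), against 0.251% of cardiomyocytes before thinning at 7041 UMIs. In endocardial-like, lymphatic-like and Hapln1-led nuclei 10, 6 and 4 Sox17 UMIs were found in all, too few for a fold.

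Within capillary-like nuclei Sox17 was higher in the Btnl9-led cluster, the one that also raised arterial markers. It reached 115, 110.2, 155, 142 and 161 CPM in the Btnl9-led cluster and 44.6, 38.7, 50.1, 37.7 and 24.0 CPM in the Kit-led cluster, a 3.50-fold difference of the means with no overlap. The order of means ran from the Sema3g-led and Gkn3-led arterial clusters (389.8 ± 73.4 and 277 ± 35.3 CPM, overlapping) to the Btnl9-led and then the Kit-led cluster, both steps without overlap. The Kirrel3-led cluster followed, at 30.6 ± 11.6 CPM, and overlapped the Kit-led one.

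Sox7 measured 87.1, 141, 189.8, 112 and 120.1 CPM in capillary-like and 118, 159.6, 166, 119.6 and 101 CPM in endocardial-like nuclei, and these overlapped. In lymphatic-like nuclei it was at 31.6, 46.0, 55.7, 27.6 and 35.4 CPM, below every capillary value and a mean 3.31-fold lower. Arterial-like nuclei had a mean of 68.6 ± 25.5 CPM, lower than capillary-like nuclei of the same library in all 5 libraries, although the ranges overlapped.

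Sox18 had low counts in every class. Its means ran from 14.2 ± 5.21 CPM in Hapln1-led to 56.9 ± 18.2 CPM in arterial-like nuclei, and each of the 8 clusters overlapped its neighbour in the order. Arterial-like nuclei were above capillary-like nuclei of the same library in 5 libraries, by little in Tg female 1 (65.7 against 64.8 CPM) and Tg male 1 (37.4 against 37.2 CPM). Endocardial-like, lymphatic-like, Kirrel3-led and Hapln1-led nuclei were above them in 0 libraries. The Hapln1-led values (20.8, 8.49, 17.3, 15 and 9.47 CPM, 15 UMIs in all) lay below all capillary values (34.6, 64.8, 56.4, 37.2 and 23.8 CPM). In lymphatic-like nuclei, where Sox18 is known from development, it measured 23.7, 40.5, 44.6, 21.3 and 16.3 CPM, overlapping the capillary range.

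Gata2 and Mecom were highest in the arterial clusters, and Gata2 was higher than in capillaries in endocardial-like nuclei as well. Gata2 measured 246, 216, 203, 266 and 281 CPM in arterial-like, 164, 129, 171, 204 and 198 CPM in endocardial-like and 103, 62.1, 74.6, 96.9 and 106 CPM in capillary-like nuclei. Both classes lay above all capillary values, by 2.74-fold and 1.96-fold of the means. Lymphatic-like nuclei had 44.3 ± 13.6 CPM, lower than capillary-like nuclei in each library but with a range that overlapped theirs.

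Mecom measured 5121, 5166, 3909, 4724 and 4763 CPM in arterial-like nuclei and 2256, 1852, 1373, 2394 and 2359.9 CPM in capillary-like nuclei. No arterial value was as low as any capillary value, and the means differed 2.31-fold. The means of the 2 arterial clusters differed by less than their spread (4712 ± 464 and 4731 ± 659 CPM). Lymphatic-like nuclei held 31.6, 49.7, 52.0, 149 and 46.2 CPM, a mean 31.2-fold below capillary-like nuclei. The Hapln1-led nuclei lay between these, at 482, 1070.3, 606, 681 and 719.6 CPM, below all endocardial-like values (2203, 2072, 1802, 1601 and 1764 CPM) and above all lymphatic-like ones. Fibroblasts, whose markers were raised in the Hapln1-led nuclei, held 1399 ± 158 CPM of Mecom, and their part in these values was not tested. After thinning, a Mecom UMI was found in 95% of arterial-like, 71.5% of capillary-like and 2.62% of lymphatic-like nuclei (97.7%, 81.3% and 5.45% unthinned), and in 1.28% of cardiomyocytes (7.43% unthinned, at a median of 7041 UMIs).

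Prox1 was highest in lymphatic-like nuclei and second in the Hapln1-led cluster. It measured 916, 1031, 873, 725 and 767 CPM in lymphatic-like nuclei, 295, 326, 237, 180.2 and 256 CPM in Hapln1-led nuclei and 31.5, 47.4, 34.2, 36.8 and 41.0 CPM in endocardial-like nuclei. These 3 ranges did not overlap, and the first was 22.6-fold and the second 6.77-fold above the endocardial-like mean.

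Capillary-like, arterial-like and Kirrel3-led nuclei held 5.33, 4.17 and 7.37 CPM of Prox1. Cardiomyocytes expressed it at 131, 195, 141, 116 and 132 CPM, and their markers are found in all endothelial classes at the sums given above; the part of such RNA in the lowest values was not tested. The Hapln1-led mean of 259 ± 55.8 CPM lay above the cardiomyocyte mean of 143 ± 30.3 CPM, with ranges that overlapped. The 8 lymphatic markers summed to 122 to 219 CPM per library in these nuclei, none of the 8 at 0 over the 5 libraries together, a mean of 172 CPM that lies within the 101 to 263 CPM of the classes other than lymphatic-like. They were Flt4 at 78.1, Lyve1 at 33.7, Nts at 31.8, Ccl21a at 19.0, Mmrn1 at 6.32, Pdpn at 1.40, Piezo2 at 1.15 and Reln at 1.00 CPM, and the part of lymphatic RNA or nuclei in the Prox1 level was not tested. A Prox1 UMI was found after thinning in 50.1% of lymphatic-like, 22.6% of Hapln1-led and 3.16% of endocardial-like nuclei (73.3%, 35.9% and 9.02% unthinned), and in 0.622% of fibroblasts (1.5% unthinned). The median depths were 2412, 2744, 2639 and 2692 UMIs in the same order.

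Lhx6 and Nr2f2 were both high in the Kirrel3-led cluster, which held the capillary list at 6050.4 CPM and the venous list at 2013 CPM. Lhx6 measured 155, 202, 226, 179 and 225 CPM there, 92.3, 72.8, 89.2, 79.8 and 88.2 CPM in the Kit-led capillary cluster and 11.7, 7.35, 19.4, 10.5 and 19.1 CPM in the Btnl9-led one. These 3 ranges were apart, at 2.34-fold above and 6.21-fold below the Kit-led mean. In arterial-like nuclei 7 Lhx6 UMIs were counted in all (0, 7.82, 2.54, 0 and 1.58 CPM), and in endocardial-like and lymphatic-like nuclei 25 and 10.

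Nr2f2 measured 534, 499, 408, 504 and 384 CPM in lymphatic-like, 222, 255, 188, 279 and 243 CPM in Kirrel3-led and 250.1, 305, 92.8, 199 and 203 CPM in endocardial-like nuclei. The lymphatic-like values lay above all other endothelial values, and the Kirrel3-led and endocardial-like ranges overlapped. Capillary-like nuclei had 43.0, 24.5, 12.4, 27.2 and 31.2 CPM and arterial-like nuclei 1.76, 7.82, 10.2, 8.12 and 1.58 CPM, again without overlap. Within capillary-like nuclei the Btnl9-led cluster was 4.43-fold below the Kit-led one, and the Kirrel3-led cluster was 6.78-fold above it. Of the 7 venous markers, 5 lay above their capillary-like range in every library of the Kirrel3-led nuclei: Vegfc (1014 CPM, against at most 273 CPM in capillary-like nuclei), Vwf (455, at most 24.0), Ephb4 (337, at most 240.3), Vcam1 (176, at most 39.8) and Lrg1 (19.4, at most 2.79). Ackr1 and Selp, at 1.90 and 9.50 CPM, overlapped it. The venous list as a whole was not highest there. It summed to 2611 CPM in endocardial-like, 2013 CPM in Kirrel3-led and 1732 CPM in arterial-like nuclei. Hapln1-led, lymphatic-like and capillary-like nuclei had 914, 456 and 423 CPM.

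Pairs of clusters were set side by side in the same way. Between the Btnl9-led and Kit-led capillary clusters Sox17 was higher and Erg, Lhx6 and Nr2f2 were lower, 4 of 9 members, beside 2.63% of all genes higher and 3.81% lower, 6.44% together. Between the Kirrel3-led and Kit-led clusters Lhx6 and Nr2f2 were higher and 0 lower, of 9, beside 4.77% higher and 4.18% lower, 8.95% together. From the Btnl9-led capillary to the Sema3g-led arterial cluster Sox17, Gata2 and Mecom were higher, by 2.85-fold, 1.92-fold and 1.92-fold, and Lhx6 was lower, 4 of 8 members beside 4.42% of all genes higher and 4.44% lower, 8.87% together. The Sema3g-led and Gkn3-led arterial clusters overlapped in all 7 members counted, where 4.18% of all genes were higher and 4.54% lower in the Gkn3-led cluster, 8.72% together. Hapln1-led nuclei were higher than endocardial-like ones in Prox1 and lower in Mecom and Nr2f2 (2.65-fold and 4.21-fold), 3 of 9 members beside 4.71% of all genes higher and 3.49% lower, 8.2% together. Between lymphatic-like and endocardial-like nuclei 6 of 8 members were apart, beside 11.2% of all genes higher and 8.54% lower, 19.7% together: Prox1 and Nr2f2 were higher, and Erg, Sox7, Gata2 and Mecom lower.

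Outside endothelium, 4 members had levels of their own in other cell types. Fli1 measured 817, 1159, 853, 849 and 962 CPM in macrophages, 928 ± 140.3 CPM in the mean, and means of 1213 CPM in B and 794 CPM in T or NK lymphocytes, all blood lineages in which it is a known regulator. Mecom was at 1454, 1471, 1129, 1406 and 1535 CPM in fibroblasts, where a UMI was found in 66.7% of thinned nuclei (86.3% unthinned). Its mean there was 1399 ± 158 CPM, against 53.9 ± 18.2 CPM in pericytes. A cluster of 2072 nuclei that raised 7 fibroblast markers stayed unnamed and was not counted among fibroblasts. The library labelled Tg female 2 gave 1032 of these nuclei.

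Nr2f2 was at 353, 427, 368, 382 and 334 CPM in pericytes and 208, 209, 264, 252 and 165 CPM in smooth muscle, the mural cells of vessels, and at a mean of 119 ± 41.5 CPM in Schwann cells, the glia of cardiac nerves. The pericyte and smooth muscle ranges lay apart from each other. Prox1 in cardiomyocytes is given above. Sox7, Sox17, Sox18, Gata2 and Lhx6 stayed below 10 CPM in the mean of cardiomyocytes, fibroblasts, pericytes, smooth muscle and macrophages, and Erg was below 10 CPM in all of these but smooth muscle (19.0 ± 9.44 CPM).

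The MHC class II myeloid and the T or NK classes also held endothelial members, with a wide spread. Mecom measured 338, 125, 819.8, 362 and 661 CPM in the former, and the endothelial markers summed to 1299, 1065, 4434, 1635 and 3585 CPM in the same libraries. The libraries with more endothelial marker RNA in this class were those with more Mecom, and the part of endothelial RNA or nuclei in these values was not tested. In T or NK lymphocytes Mecom had a mean of 569 ± 439 CPM, and the endothelial markers summed to 422, 1696, 3960.3, 3037 and 4481 CPM. In smooth muscle Mecom was at 235, 669, 84.6, 142 and 45 CPM, with the library labelled Tg female 1 far above the rest, while endothelial markers summed there to 244, 262, 502, 457 and 526 CPM and fibroblast markers to 757, 913, 1209, 788 and 556 CPM.

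**Figure D3:**
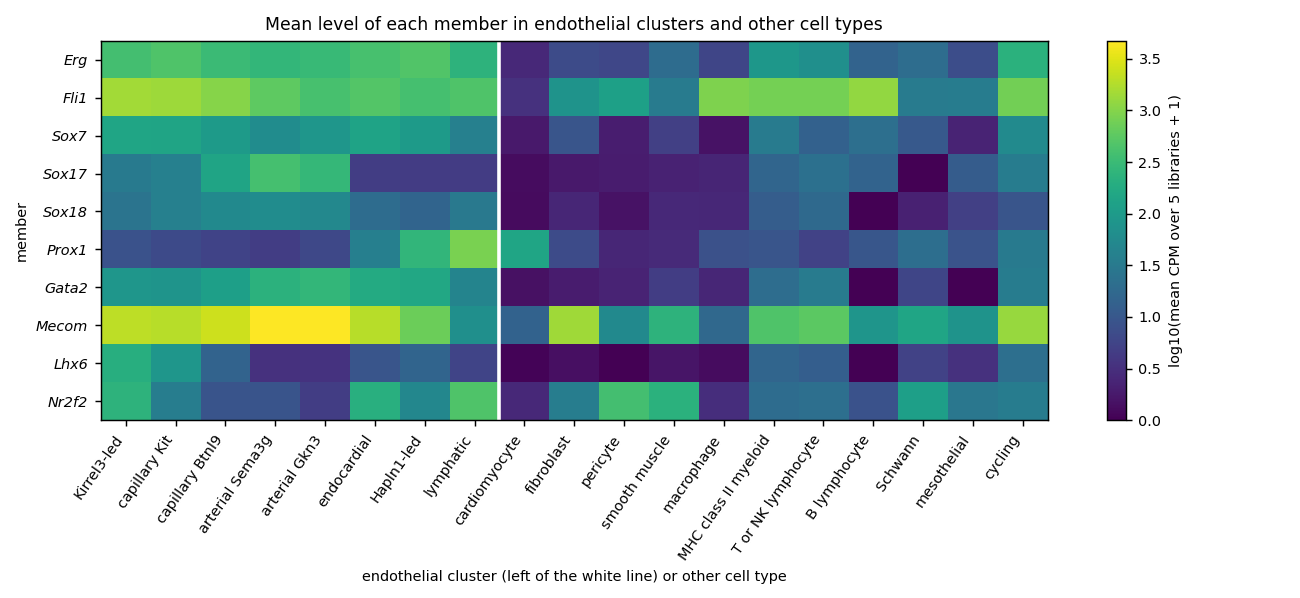
Mean CPM of each member over 5 libraries, as log10(CPM + 1), in the 8 endothelial clusters (left of the white line) and in 11 other cell types. Fli1 is high in the myeloid and lymphoid types, Mecom in fibroblasts, Nr2f2 in pericytes and smooth muscle, and Prox1 in cardiomyocytes. In these 11 types Sox7, Sox17, Sox18 and Lhx6 reach at most 56.6 CPM, for Sox7 in cycling nuclei, which also raised 3 endothelial markers.

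For each member the 3 genes of most similar pattern were taken by Pearson's r of the mean log2(CPM + 1) over 17 cell types and endothelial classes, among 15916 genes. These correlations describe types that share libraries, and carry no test. Erg was nearest to Cdh5 (VE-cadherin, r = 0.978) and Tie1 (an endothelial receptor kinase, r = 0.978), and then Ppm1f. Gata2 was nearest to Nos3, the endothelial nitric oxide synthase (r = 0.981), then Gm15587 and Erg (r = 0.965). Sox7 was nearest to Ppm1f (r = 0.956), Erg (r = 0.955) and Kif26a. Sox17 followed Sema3g (r = 0.931), an arterial marker, and Sox18 followed Podxl (podocalyxin, r = 0.954), Gm29682 and Rasgrf2. Lhx6 was nearest to Rps6kl1 (r = 0.897), the apelin receptor gene Aplnr (r = 0.893) and Car8, all 3 with their highest mean in the Kirrel3-led nuclei.

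For 4 members a near or overlapping transcript led or stood among the 3 most similar. Fli1 was nearest to Gm27201 (r = 0.995), Prox1 to Prox1os (r = 0.926) with Gm28172 also among its 3 (r = 0.854), and Mecom had Gask1b (r = 0.966) and then Mecomos (r = 0.957). Gm27201, Prox1os, Gm28172 and Mecomos overlap their member on the opposite strand. Nr2f2 was nearest to Gm28258 (r = 0.904), which lies 5303 bases away on the same strand, and to B130024G19Rik (r = 0.867), which overlaps it on the opposite strand. Among the members themselves r was 0.955 between Erg and Sox7, 0.965 between Erg and Gata2 and 0.919 between Gata2 and Sox18, and lowest between Prox1 and Sox17 (r = -0.196) and between Nr2f2 and Sox17 (r = -0.141).

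Other transcription factors of endothelium also differed in level between vessel classes. Of a list of 36, 29 could be counted in arterial-like nuclei, and 9 were higher and 7 lower than in capillary-like nuclei. Among all genes counted the same way 8.03% were higher and 10.6% lower. The Notch effector Hey2 was at 29.5 ± 7.12 CPM against 0.0955 CPM (SD, n = 5) and the forkhead factor Foxc1 at 21.4 ± 4.06 against 6.77 CPM, while Tcf15 (30.4 against 104.8 CPM), Meox1 (6.07 against 33.3 CPM) and Ets2 (21.3 against 122 CPM) were lower. The median log2 ratio of the 29 was 0.10, beside -0.06 for all genes. In endocardial-like nuclei 5 of 31 were higher, led by Gata4 (198 ± 15.8 against 6.18 CPM), Foxc1 (166 ± 18.5 CPM) and Gata6 (255 ± 35.5 against 32.2 CPM), and 14 were lower, among them Tcf15, Meox1 and Tbx3. In lymphatic-like nuclei 5 of 31 were higher, led by Maf (1051 ± 122 against 9.71 CPM), Hoxd9 and Foxc2, and 13 were lower. Among all genes 12.4% were higher and 14.6% lower in endocardial-like nuclei, and 14.1% and 12.8% in lymphatic-like nuclei.

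In Kirrel3-led nuclei 3 of 28 were higher (Foxc1, Gata6 and Klf4, a flow-responsive factor at 209 ± 41.1 against 101 CPM) and 5 lower. In Hapln1-led nuclei 8 of 31 were higher and 12 lower. The highest ratios there belonged to Hey2 (119 ± 32.4 CPM), Tbx20 (405 ± 120 against 4.91 CPM) and Gata4 (351 ± 55 CPM), all factors known from heart development. Among all genes 5.29% were higher and 4.81% lower in Kirrel3-led nuclei, and 11.4% and 12% in Hapln1-led nuclei. The median log2 ratios of the list were -0.18, -0.39, -0.07 and -0.04 in endocardial-like, lymphatic-like, Kirrel3-led and Hapln1-led nuclei, beside -0.04, 0.02, 0.02 and 0.00 for all genes.

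Lists of genes known to depend on the members were counted the same way. The shares of all genes higher and lower in each class are those just given for the other transcription factors. Some of the listed genes also serve as markers by which the classes were named. Of 8 Prox1-dependent lymphatic genes, 7 were higher and 1 lower in lymphatic-like nuclei, and without markers 3 of 4 were higher (among them the integrin gene Itga9 at 802 ± 99.8 against 104 CPM, and Hoxd8) and Fgfr3 was lower (10.2 against 44.6 CPM). In Hapln1-led nuclei 3 of 3 without markers were higher (Itga9 at 853 ± 133 CPM, Cp and Fgfr3), but the same 3 were also higher in arterial-like and Kirrel3-led nuclei, where Prox1 was under 10 CPM. Of 10 Notch and arterial genes under SoxF, 5 were higher in arterial-like nuclei, and without markers 2 of 6 were higher and Nrp1 was lower (650 ± 171 against 1537 CPM). In Kirrel3-led nuclei 0 of 9 were higher and 5 lower, among them the ephrin gene Efnb2 (40.8 ± 9.28 against 228 CPM), and without markers 0 of 6 were higher and 2 lower. The median log2 ratio was -2.11 with the markers and -0.36 without them. The 15 ETS-dependent endothelial genes went in both directions in arterial-like nuclei (4 higher, 5 lower), and in lymphatic-like nuclei 0 were higher and 11 lower, with a median log2 ratio of -1.21. Of a separate list of venous genes set against Nr2f2, 2 of 5 counted were higher in Kirrel3-led nuclei, Vwf and Ephb4, both also markers, and the non-markers Nrp2 and Aplnr overlapped their capillary-like ranges.

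The labels allow 1 replicated contrast, female against male, a difference that the study set out to describe. No member passed an adjusted p of 0.05 in any of the 6 endothelial classes (edgeR quasi-likelihood test on summed counts, genotype label as a covariate). The fit gives the single library labelled nTg a term of its own. The difference therefore rests on the 2 female and the 2 male libraries with a Tg label. Cardiomyocyte Ccna2 was at 0.536 and 846 CPM in these females and at 237 and 145 CPM in these males. The arms are thus unlike in Ccna2 as well as in sex, and its part in the differences was not tested. Of all genes tested, 0.233% were called in capillary-like, 0.39% in arterial-like, 0.308% in endocardial-like, 0.581% in lymphatic-like, 0.756% in Kirrel3-led and 0.154% in Hapln1-led nuclei. At an unadjusted p under 0.05 the members counted 4 of 10, 2 of 7, 0 of 8, 2 of 8, 3 of 9 and 0 of 7 in the same order, beside 8.89%, 8.07%, 6.34%, 6.25%, 7.47% and 4.57% of all genes. DESeq2 likewise called 0 members in each class.

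The nearest to a call were Sox18 and Gata2 in capillary-like nuclei and Sox7 in arterial-like nuclei. Sox18 was at 34.6, 64.8, 56.4, 37.2 and 23.8 CPM in capillary-like nuclei, with both libraries labelled Tg female above both labelled Tg male and the library labelled nTg female 1 below 1 of the male ones. Its log2 difference, female minus male, was 0.92 (SE 0.25, edgeR adjusted p = 0.229). It passed when low-count genes were kept in the fit (edgeR adjusted p = 0.0282). Sox7 in arterial-like nuclei was at 63.3, 84.5, 104, 47.1 and 44.1 CPM, all 3 female libraries above both male ones, with a log2 difference of 1.00 (SE 0.31, edgeR adjusted p = 0.193). Gata2 in capillary-like nuclei was at 103, 62.1, 74.6, 96.9 and 106 CPM, with a log2 difference of -0.64 (SE 0.19, edgeR adjusted p = 0.269), where the library labelled nTg female 1 lay among the male values.

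For Sox7, Sox18 and Gata2 direction repeated over classes, although the classes share libraries and so are not independent. How many of all genes repeated a direction in as many classes was not counted. Both libraries labelled Tg female lay above both labelled Tg male in 5 of 6 classes for Sox7 and in 5 of 6 for Sox18, and below them in 4 of 6 for Gata2. Fli1 overlapped in 6 of 6. Over all members this came to 15 pairs of member and class above and 8 below of 50 with a mean of at least 10 CPM, where 20.5% and 15.6% of all such pairs of gene and class were above and below. With the library labelled nTg female 1 counted among the females, all 3 lay above both males in 2 of 6 classes for Sox7 and 1 of 6 for Sox18, and below both in 3 of 6 for Gata2. That made 6 of 50 above and 5 below, beside 12% and 9.32% of all pairs, so the members' shares were near those of all genes. Mecom had log2 differences of -0.62 (SE 0.22) in capillary-like and -0.66 (SE 0.23) in Kirrel3-led nuclei, with edgeR adjusted p = 0.416 and 0.314. Here the library labelled Tg female 2 was lowest (2256, 1852, 1373, 2394 and 2359.9 CPM in capillary-like nuclei), and without the library labelled Tg female 1 both differences passed, at edgeR adjusted p = 0.0152 and 0.0037. That fit sets 1 library labelled Tg female, the one that stood apart, against 2 labelled Tg male, and the lone library is assumed to vary like the other groups.

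In 7 other cell types no member was called either, beside 0.746% of genes called in fibroblasts, 0.478% in smooth muscle, 0.335% in macrophages, 0.2% in pericytes, 0.187% in Schwann cells, 0.0404% in MHC class II myeloid nuclei and 0.025% in cardiomyocytes. At an unadjusted p under 0.05 there were 2 of 7 members in fibroblasts and 1 of 4 in smooth muscle, beside 9.37% and 5.3% of all genes. There were 0 of 6 in cardiomyocytes, 0 of 3 in macrophages, 0 of 5 in MHC class II myeloid nuclei, 0 of 3 in pericytes and 0 of 2 in Schwann cells, beside 6.94%, 8.73%, 2.13%, 6.59% and 4.63%. DESeq2 called 0 members. The fits below that leave out a library set 1 library of a sex against 2 of the other, and the lone library is assumed to vary like the other groups. The closest was Mecom in smooth muscle (log2 difference 2.07, SE 0.54, edgeR adjusted p = 0.098), which rests on the library labelled Tg female 1: without it the difference was -0.13 (edgeR adjusted p = 0.959). Without Tg female 2, without Tg male 1 or with low-count genes kept it passed (edgeR adjusted p = 2.43e-17, 3.09e-04 and 1.98e-05). Sox7 in fibroblasts, at 6.90, 9.68, 16.3, 3.41 and 5.04 CPM, had a log2 difference of 1.51 (SE 0.36, edgeR adjusted p = 0.123), and passed without Tg female 1, without Tg male 2 or with low-count genes kept (edgeR adjusted p = 0.0234, 0.0231 and 4.04e-04). In MHC class II myeloid nuclei Mecom and Erg passed without Tg female 2 (log2 differences of -2.01 and -2.28, edgeR adjusted p = 1.35e-04 and 0.0256), a fit in which the lone Tg female library held 1065 CPM of endothelial markers and the males 1635 and 3585 CPM. In Schwann cells Mecom passed without Tg male 1 (edgeR adjusted p = 0.00724), where endothelial markers summed to 748, 575, 1192, 255 and 214 CPM in the 5 libraries. The part of endothelial RNA or nuclei in these differences was not tested.

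**Figure D4:**
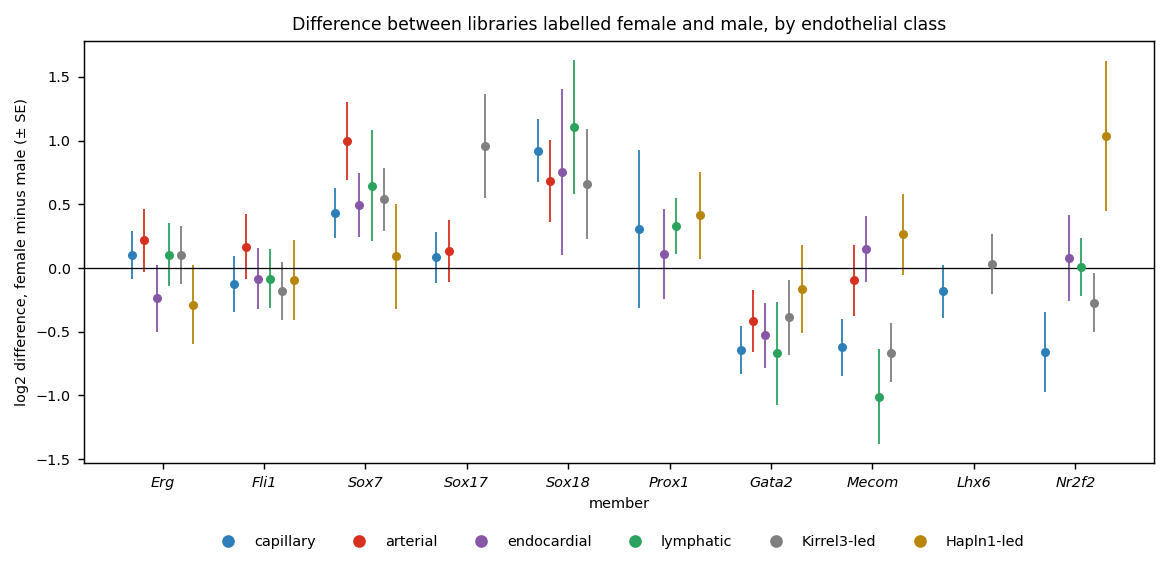
Log2 difference, female minus male, of each member in the 6 endothelial classes (points, coloured by class) with its standard error from edgeR; members that a class did not have enough counts for have no point. Sox7 and Sox18 lie above 0 and Gata2 below 0 in every class with a point, and no point passed an adjusted p of 0.05.

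The single library labelled nTg allows no test of genotype, and its Ccna2 level went against its label. In the 6 endothelial classes it lay within the range of the 4 libraries labelled Tg in 36 member and class pairs, above it in 4 and below it in 10. That is 4 and 10 of 50, beside 16.6% above and 19.4% below of all pairs of gene and class. Of those below, Sox7 in capillary-like nuclei was at 87.1 CPM against 112 to 190 CPM, Lhx6 in Kirrel3-led nuclei at 155 CPM against 179 to 226 CPM and Gata2 in Hapln1-led nuclei at 99.8 CPM against 150 to 200.2 CPM. Of those above, Nr2f2 was at 43.0 CPM against 12.4 to 31.2 CPM in capillary-like nuclei and at 534 CPM against 384 to 504 CPM in lymphatic-like nuclei.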

How the data were processed

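Single-nucleus libraries made with 10x Genomics reagents were deposited as matrices of UMI counts per gene and nucleus, written by Cell Ranger 7.0.0 per the file headers, with build mm10 per the submitters' processing notes. Use of strand and of intronic reads is not given in the sources used here. Nuclei with at least 200 genes and at most 5% mitochondrial counts were kept. Doublets were called with Scrublet in scanpy 1.11.5 (7.63% to 11.4% per library) and removed. In the library labelled Tg female 2 the automatic threshold called 0%, and the mean of the other 4 thresholds was used.

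Nuclei were clustered (2000 variable genes, 30 components, 15 neighbours, Leiden resolution 1, then 0.5 within endothelium) and named from at least 3 raised markers. A cluster stayed unnamed where another list had more markers among its 10 leading genes. Raised means a log2 fold of at least 1 in at least 5% of nuclei. Counts were summed per library and class and given as CPM of all counts. The sex contrast used edgeR 4.0.16 (R 4.3.3) with TMM scaling, filterByExpr, quasi-likelihood tests and Benjamini-Hochberg adjustment over all genes, in classes with at least 20 nuclei per library. On counts simulated for capillary-like nuclei it called 44.9% of genes given a log2 change of 1 and 81.1% of those given a larger one. Differences of that size can therefore be missed. DESeq2 1.42.0, other scaling, no filter, a marker gate (nuclei classed by their markers alone), doublets kept, thinning and leaving out each library were tried as alternatives. Named genes were the members, the 3 genes of most similar pattern per member, and the highest and lowest 3 of each list. Members, markers and lists were chosen with earlier results of these data known. CPM intervals and shares carry counting error only.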

Additional observations from a re-analysis of the deposited data

Results flagged for a closer look

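Among the 4 libraries labelled Tg, 1 stood far from the other 3 in 3 of the 50 member and class pairs examined, about as many as chance gives (1 in 20 groups). Mecom in lymphatic-like nuclei was at 148.8 CPM under the label Tg male 1, against 46.2 to 52.0 CPM in the other 3. Sox17 in capillary-like nuclei was at 77.1 CPM in the library labelled Tg female 2, against 59.9 to 61.6 CPM, and Sox18 in endocardial-like nuclei was at 44.0 CPM in that library, against 13.1 to 14.4 CPM.

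For 3 members the libraries labelled Tg female lay wholly on one side of those labelled Tg male in 1 class and on the other side in another class. These are log2 ratios of the mean female to the mean male CPM, and the differences between classes were not tested. The same held for 25.2% of all 10732 genes with at least 10 CPM in 2 or more classes, so 3 of 10 members is near the share of all genes. Erg had 0.17 in capillary-like and -0.29 in Hapln1-led nuclei, and in both classes the library labelled nTg female 1 lay between the 2 males. Mecom had 0.20 in endocardial-like nuclei and -0.56 and -0.62 in capillary-like and Kirrel3-led nuclei, and there all 3 female libraries were on the same side. Nr2f2 had 1.23 in Hapln1-led and -0.66 in capillary-like nuclei, and the library labelled nTg female 1 lay between the males in the former and above both in the latter.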

How the results depend on the processing

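Of 48 member and class pairs, 30 had library ranges apart from capillary-like nuclei. The count was 31 with doublets kept, 28 for thinned shares, 27 at resolution 1 (chosen after seeing the data) and 30 to 33 when 1 library was left out, and 23 of 40 with the marker gate. Shares of all genes are not given for these settings, and ranges over fewer libraries separate more easily. No ratio with library ranges apart from capillary-like nuclei reversed under these settings. Reversals of ratios whose ranges overlapped were not counted. The ratio moved by more than the spread between libraries in 17 of 48 pairs at resolution 1, 15 of 38 with the gate, 11 of 48 for thinned shares, 3 of 48 with doublets kept and 0 when 1 library was left out. The difference in Mecom between the sexes reversed when 1 library was left out in lymphatic-like nuclei (range -1.58 to 0.083, the latter without Tg male 1) and in smooth muscle (range -0.13, without Tg female 1, to 3.11). Counts of all genes that differed by sex moved by over 1.5 times, and each class is given with its count first and its alternatives after. Capillary-like: 29, DESeq2 71, no filter 292 with 1 member, replicate block 273 with 1 member, gate 8, leaving out 1 library 23 to 136 with 0 to 1 members. Arterial-like: 37, DESeq2 24, Tg libraries only 22, block 101, gate 19, leaving out 1 library 22 to 178. Endocardial-like: 30, DESeq2 16, no filter 81, Tg only 16, block 63, gate 19, leaving out 1 library 16 to 87. Lymphatic-like: 47, DESeq2 11, Tg only 18, gate 22, leaving out 1 library 18 to 170. Kirrel3-led: 78, DESeq2 30, Tg only 34, leaving out 1 library 34 to 231 with 0 to 1 members. Hapln1-led: 9, DESeq2 3, Tg only 4, block 21, leaving out 1 library 4 to 29. Other types: 224, no filter 1163 with 2 members, Tg only 145, block 1045 with 2 members, leaving out 1 library 145 to 1868 with 0 to 3 members. The causes were not tested. The member called without a filter and with the block in capillary-like nuclei was Sox18 (edgeR adjusted p = 0.0282 and 0.0144). In other types these were Sox7 in fibroblasts and Mecom in smooth muscle. Correlations of deviations between same-numbered libraries were 0.005 to 0.148 in the 6 endothelial classes, 0.352 in MHC class II myeloid nuclei, 0.121 in macrophages and -0.314 in Schwann cells, and with 2 numbers the labels do not show that these are pairs. The gate gave no sex fit for the Kirrel3-led and Hapln1-led classes, which had too few or no gated nuclei. Sox17, Lhx6 and Prox1 rest on few UMIs where they are low, which limits their folds there.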
